A study of Homo sapiens with 12 samples.

Results

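All 12 RNA-seq libraries of the series were grouped by the independent culture experiment from which they came, as given by the digit in each column name of the count table, with 4 libraries in each of experiments 1, 2 and 3. The question was which genes and pathways varied between experiments carried out on the same cell line, first experiment 2 against experiments 1 and 3 and then experiment 3 against experiment 1. The cells were A375, an established human metastatic melanoma line with mutant BRAF, grown in DMEM with serum between passages 30 and 32. Each experiment had one library of each treatment for 24 h: the DMSO vehicle, 5 μM of the PPARγ agonist rosiglitazone (RGZ), 2 μM of the PPARγ antagonist T0070907, and RGZ together with T0070907 (the combination). Each library is 1 sample. The paper describes pooling of RNA from technical replicates for its TXNIP silencing experiments and refers to earlier work for the libraries used here. The treatment entered every comparison as a covariate, and an experiment was represented by 4 differently treated cultures rather than by 4 repeats of 1 condition. The p-values therefore measure the spread between libraries of an experiment once the treatment is accounted for. Culture, passage, RNA extraction and library preparation cannot be told apart from one another as the source of a difference between experiments.

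Melanoma cells in culture hold several transcriptional states that lie along an axis from a melanocytic or neural-crest-like state, marked by SOX10, MITF and ERBB3, to a dedifferentiated one, marked by AXL, EGFR, SOX9 and matrix genes. Many melanoma lines also express MHC class II molecules, the heterodimers that present peptides to CD4+ T cells, under control of the transactivator CIITA, which acts with RFX and NF-Y proteins on the promoters of the class II genes. Expression of other groups, such as sterol synthesis, amino acid response, heat shock and cell cycle genes, follows the nutrients, density and growth of a culture.

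The libraries held 8319455 to 11375227 counts. Levels are given below as counts per 1000000 (CPM) of the library's total over the tested genes, scaled by the trimmed mean of M values (TMM), and within an experiment they are listed in the order vehicle, RGZ, T0070907 and combination. The melanocytic transcription factor SOX10 was present in every library, at 178 to 429 CPM, whereas the pigment gene TYR had no count in any of the 12 libraries and DCT and TRPM1 had 1 count each in all libraries together. PMEL and OCA2 of the same list summed to 101 and 102 counts and the receptor gene KIT to 6. MC1R, RAB38 and RAB27A were at 17.6 to 32.5, 11.9 to 18.9 and 6.47 to 11.15 CPM. Of the markers of other cell types, the leukocyte genes CD3E and PTPRC summed to 1 and 7 counts over the 12 libraries and the keratinocyte genes KRT1 and TP63 to 0 and 1. In contrast, CD68 and LYZ of the leukocyte list were at 33.2 to 97.3 and 3.85 to 16.85 CPM and KRT10 and KRT14 of the keratinocyte list at 69.15 to 91.4 and 5.37 to 36.96 CPM. In bulk RNA, fewer cells of one state and less RNA per cell cannot be told apart.

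The first principal component of log2 CPM held 40.8% of the variance, and the experiment accounted for 94.4% of the spread of the libraries along it. Experiment 2 lay at 22.03 to 38.3 on this axis, experiment 1 at −9.19 to 3.39 and experiment 3 at −31.4 to −16.0, so that the 3 experiments did not overlap and experiment 1 lay between the others. The second component held 24.0% of the variance, and the treatment accounted for 93.0% of its spread. RGZ libraries lay at 24.96 to 30.05 on it and T0070907 libraries at −24.8 to −14.9. Vehicle libraries, at −10.5 to −1.50, overlapped the combination libraries, at −9.35 to 7.78. The combination library of experiment 1 differed from the others of its experiment. It had the highest residual spread of all libraries after experiment and treatment were removed (SD 0.153 on the log2 scale, against 0.102 to 0.140 in the others) and a score of −18.3 on the third component, against 15.0 to 20.2 in the other libraries of experiment 1. The combination library of experiment 3 was at −15.5 on this component and that of experiment 2 at −5.33. The counts of the lists that moved most without this library are given both ways.

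**Figure D1:**
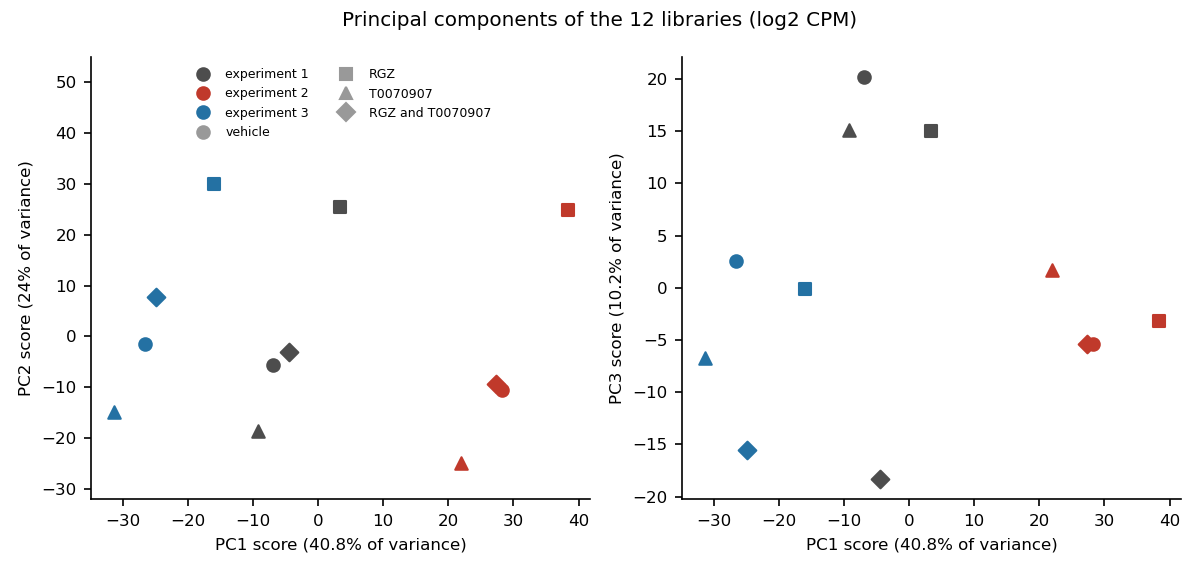
Scores of the 12 libraries on the first and second (left) and on the first and the third (right) principal components of log2 CPM; colors mark the experiment and symbols the treatment. Experiments are separated along the first component, with experiment 2 between 22.03 and 38.3, and the combination library of experiment 1 sits at −18.3 on the third.

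Of 13340 genes tested, 4074 (30.5%) differed between the 3 experiments at an adjusted p under 0.05 (edgeR quasi-likelihood test, Benjamini-Hochberg). Experiment 2 differed from the mean of experiments 1 and 3 in 3538 genes (26.5%), of which 1973 (14.8%) were higher and 1565 (11.7%) lower in experiment 2. With a correction for GC content and length 4792 genes were called, 1926 higher and 2866 lower, so that the larger side turned. The difference had the same sign within all 4 treatments for 3326 of the 3538 genes called without this correction, or 94.0%. The calls were made from the same libraries, so that this share is a description. Most differences were small: the median size among the called genes was 0.35 on the log2 scale, and 311 genes were at least 2-fold higher and 175 at least 2-fold lower. Experiment 3 differed from experiment 1 in 1616 genes (12.1%), 830 of them (6.22%) higher and 786 (5.89%) lower in experiment 3. Without the combination library of experiment 1 these numbers were 4572 genes for experiment 2 and 2806 genes for experiment 3 against experiment 1, and 3501 of the 3538 and 1512 of the 1616 genes remained called in the same direction. Leaving out the T0070907 or the RGZ library lowered the 1616 genes to 965 and 1001 for experiment 1 and to 966 and 1048 for experiment 3. The share of the variance in log2 CPM had a median over genes of 27.6% for the experiment, 34.5% for the treatment and 28.0% for the rest. Each median was taken on its own, and the shares were not adjusted for the 3 levels of the experiment and the 4 of the treatment. By these unadjusted shares the experiment accounted for more than the treatment in 43.7% of the genes.

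The genes furthest above the other experiments in experiment 2 were BASP1, a membrane-bound protein that also acts as a co-repressor of transcription, and TRPC4, a cation channel. BASP1 was at 47.4, 47.5, 60.3 and 64.9 CPM in experiment 2, at 6.25, 5.82, 9.01 and 7.41 CPM in experiment 1 and at 0.471, 0.711, 1.12 and 0.322 CPM in experiment 3. No library of one experiment overlapped those of another, and experiment 1 lay between. The log2 difference of experiment 2 from the mean of the others was 4.63 ± 0.10 (SE, n = 4 libraries per experiment, adjusted p = 9.4e-16), and experiment 3 was lower than experiment 1 by a log2 difference of −3.36 ± 0.23 (adjusted p = 3.3e-08). By summed counts BASP1 was 7.86 times as high in experiment 2 as in experiment 1 (95% exact interval 6.89 to 8.999) and 80.9 times as high as in experiment 3 (55.5 to 123.1), where these intervals cover counting error only. TRPC4 was carried by 528 counts in experiment 2, 53 in experiment 1 and 8 in experiment 3, and the ratio of experiment 2 to experiment 3 was 68.5 with an interval of 34.5 to 159.6.

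The other 10 of the 12 genes furthest above in experiment 2 showed the same order of the experiments by mean level, with experiment 2 highest and experiment 3 lowest. IGFN1, an immunoglobulin-domain protein, was at 56.9, 42.4, 77.8 and 60.5 CPM in experiment 2, at 5.61 to 8.86 CPM in experiment 1 and at 1.07 to 1.65 CPM in experiment 3. SH3GL2, which encodes the endocytic protein endophilin A1, was at 29.1 to 38.5 CPM in experiment 2 and below 1 CPM in every library of experiment 3. MPP7, a scaffold protein of cell polarity, was at 34.6 to 40.8, 9.04 to 12.7 and 0.812 to 1.93 CPM in experiments 2, 1 and 3. The cytokine IL18 was less spread between the other experiments, at 26.7 to 32.4 CPM in experiment 2 against 3.74 to 5.93 CPM in experiment 1 and 1.71 to 2.76 CPM in experiment 3. SPANXC, a cancer-testis gene of the X chromosome with near-identical copies, between which reads may be divided, had a log2 difference of 3.61 ± 0.10. The remaining genes were NALF1 and PLXDC2, the cardiac troponin TNNT2, the cadherin CDH4 and the cell surface peptidase MME, with log2 differences from 2.99 to 3.17. Between experiments 3 and 1 the log2 differences of the 12 genes ran from −3.36 to −0.95, in a comparison that shares its libraries with the first. The choice of these genes used the level in experiments 1 and 3, so that their order is a description.

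**Figure D2:**
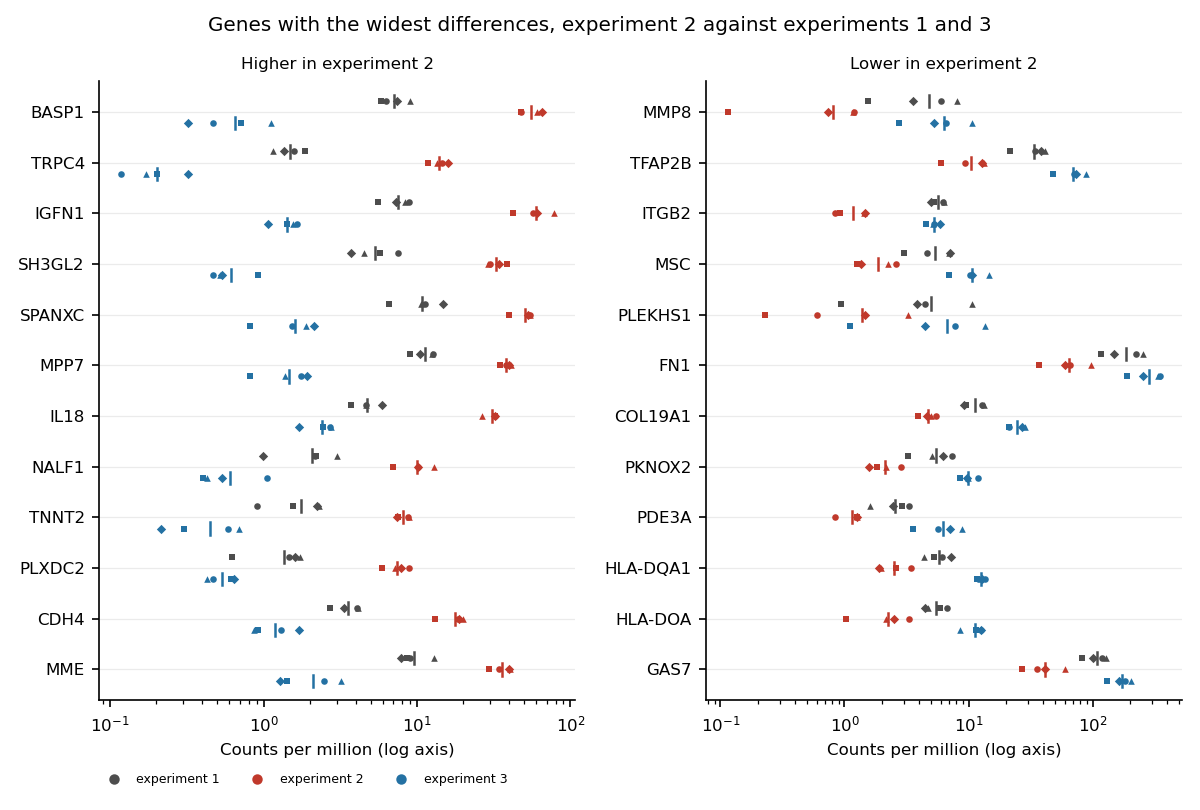
Level of the 12 genes furthest above (left) and furthest below (right) the other experiments in experiment 2, in CPM on a log axis; each point is a library, colored by experiment and shaped by treatment (circle vehicle, square RGZ, triangle T0070907, diamond combination), and the vertical strokes are means of 4 libraries. BASP1 lies at 47.4 to 64.9 CPM in experiment 2 and at 0.322 to 1.12 CPM in experiment 3.

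Among the 12 genes furthest below the other experiments in experiment 2, the differences were smaller, from −2.79 to −1.74 on the log2 scale. TFAP2B, a transcription factor of the AP-2 family that acts in the neural crest, was at 9.40, 6.05, 13.3 and 12.8 CPM in experiment 2, at 34.1, 21.6, 41.4 and 38.3 CPM in experiment 1 and at 71.2, 47.9, 88.5 and 73.3 CPM in experiment 3. The groups did not overlap, and the differences were −2.23 ± 0.08 for experiment 2 (adjusted p = 2.2e-13) and 1.06 ± 0.07 for experiment 3 against experiment 1 (adjusted p = 1.4e-08). Fibronectin (FN1) was at 65.5, 36.8, 97.0 and 59.98 CPM in experiment 2, at 117 to 256 CPM in experiment 1 and at 191 to 352 CPM in experiment 3, which overlapped experiment 1. Its difference was −1.84 ± 0.08 for experiment 2 and 0.64 ± 0.08 for experiment 3 against experiment 1 (adjusted p = 1.5e-05), and within each treatment experiment 3 was higher than experiment 1. The leukocyte integrin chain ITGB2 was different in kind. It was at 0.833 to 1.47 CPM in experiment 2 and at 4.94 to 6.35 and 4.57 to 5.89 CPM in experiments 1 and 3, between which no difference was found (−0.14 ± 0.15, adjusted p = 0.63). The collagenase MMP8 followed it, with a difference of −2.79 ± 0.20 in experiment 2 and of 0.41 ± 0.15 (adjusted p = 0.09) between experiments 3 and 1. PLEKHS1, the collagen COL19A1, the transcription factors MSC and PKNOX2, the phosphodiesterase PDE3A, GAS7 and the class II genes HLA-DQA1 and HLA-DOA made up the rest. PLEKHS1 depended more on the treatment than on the experiment, which accounted for 37.5% of its variance.

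The MHC class II genes moved together. Since HLA-DQA1, HLA-DQA2 and HLA-DOA had been named by their rank, all members of the family in the table were examined, a choice made after their values had been seen. Of 16 family members tested (the 14 HLA-D genes, the invariant chain CD74 and CIITA), 15 were lower in experiment 2 than in experiments 1 and 3, beside 11.7% of all genes, and 15 were higher in experiment 3 than in experiment 1, beside 6.22% of all genes. The exception in both was HLA-DOB, at 0.685 to 2.47 CPM, with differences of −0.56 ± 0.26 (adjusted p = 0.12) and 0.59 ± 0.27 (adjusted p = 0.18). The median log2 difference of the 16 genes was −1.48 for experiment 2 and 0.79 for experiment 3 against experiment 1, while the median of all genes tested was −0.0044 and −0.0088.

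HLA-DRA, the chain shared by all HLA-DR molecules, was at 116, 102, 104 and 121 CPM in experiment 2, at 260, 240, 221 and 254 CPM in experiment 1 and at 416, 412, 399 and 439 CPM in experiment 3. The differences were −1.52 ± 0.04 (adjusted p = 2.3e-14) and 0.77 ± 0.05 (adjusted p = 1.1e-08). CD74, which escorts class II molecules to the endosome, was the most abundant member, at 488 to 513 CPM in experiment 2, 936 to 1143 CPM in experiment 1 and 1586 to 1791 CPM in experiment 3. In both genes the libraries within an experiment lay close together whatever the treatment, and the experiment accounted for 98.8% and 99.0% of their variance. HLA-DMA, which helps to load peptides, was at 21.2 to 24.5, 34.8 to 42.2 and 60.6 to 64.7 CPM in experiments 2, 1 and 3. HLA-DPB1 differed least among the 15, by −0.54 ± 0.07 in experiment 2 and 0.28 ± 0.07 between experiments 3 and 1 (adjusted p = 0.019). HLA-DRB1, HLA-DRB5 and the pseudogene HLA-DRB6 resemble one another in sequence, as do HLA-DQA1 and HLA-DQA2, and reads may have been divided between them, so that their single levels are uncertain.

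CIITA itself followed the order of its targets. It was at 13.8, 12.3, 11.5 and 12.1 CPM in experiment 2, at 31.8, 34.6, 24.6 and 23.6 CPM in experiment 1 and at 40.1, 45.9, 32.4 and 39.3 CPM in experiment 3. Experiment 2 lay below all other libraries (−1.43 ± 0.08, adjusted p = 3.7e-10), while experiments 1 and 3 overlapped and differed by 0.46 ± 0.08 (adjusted p = 7.4e-04). The RFX subunits, which bind class II promoters, differed less: RFX5 differed by −0.11 ± 0.04 (adjusted p = 0.070) and 0.18 ± 0.05 (adjusted p = 0.023), RFXANK by −0.01 ± 0.06 (adjusted p = 0.91) and RFXAP by 0.04 ± 0.10 (adjusted p = 0.82) in experiment 2. The class I light chain B2M was at 536 to 650 CPM in experiment 1, 593 to 724 CPM in experiment 2 and 608 to 683 CPM in experiment 3, and differed by 0.09 ± 0.04 (adjusted p = 0.12) and 0.13 ± 0.05 (adjusted p = 0.089).

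**Figure D3:**
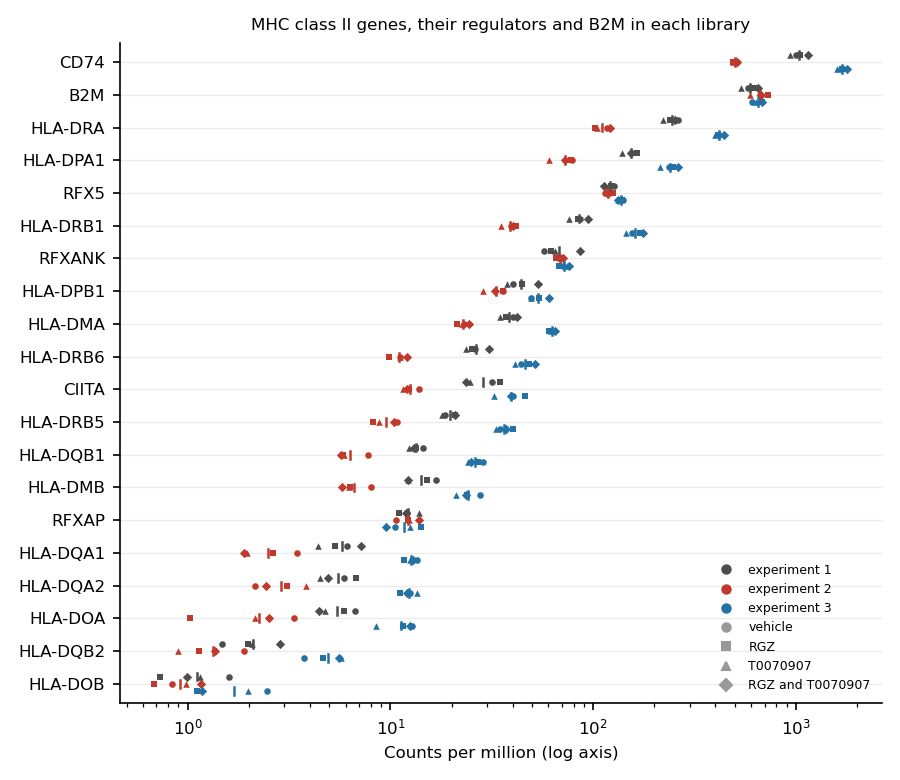
Level in CPM (log axis) of the MHC class II genes, their regulators and B2M in the 12 libraries, ordered by mean level; colors mark the experiment, symbols the treatment and vertical strokes the means of 4 libraries. HLA-DRA lies at 102 to 121 CPM in experiment 2, 221 to 260 CPM in experiment 1 and 399 to 439 CPM in experiment 3, while B2M overlaps between experiments.

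Class II promoters carry the inverted CCAAT box bound by NF-Y, called the Y box, and because the members moved together some of these promoters are shown. RefSeq promoters (GRCh38.p14, 300 bases each, from 250 bases before to 50 after the annotated start) were found for 13 of the 16 family members. The letters TGATTGG or their reverse complement were searched on both strands and are in capitals. They were present in 8 of the 13 promoters (61.5%) and in 2441 of all 35116 promoters (6.95%). The windows shown are on the minus strand at chr6:33009542-33009841 (HLA-DOA), chr6:32953048-32953347 (HLA-DMA) and chr6:32589799-32590098 (HLA-DRB1), all 3 of which lie in the class II region of chromosome 6.
HLA-DOA: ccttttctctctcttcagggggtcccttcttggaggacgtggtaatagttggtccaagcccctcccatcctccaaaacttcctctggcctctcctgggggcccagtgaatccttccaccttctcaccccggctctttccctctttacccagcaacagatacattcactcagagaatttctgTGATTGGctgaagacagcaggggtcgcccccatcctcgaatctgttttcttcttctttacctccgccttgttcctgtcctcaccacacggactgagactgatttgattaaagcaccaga
HLA-DMA: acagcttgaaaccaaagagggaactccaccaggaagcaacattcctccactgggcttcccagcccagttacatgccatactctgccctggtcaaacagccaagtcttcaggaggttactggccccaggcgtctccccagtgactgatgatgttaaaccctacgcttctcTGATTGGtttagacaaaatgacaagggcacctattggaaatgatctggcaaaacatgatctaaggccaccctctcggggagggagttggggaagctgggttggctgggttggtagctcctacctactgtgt
HLA-DRB1: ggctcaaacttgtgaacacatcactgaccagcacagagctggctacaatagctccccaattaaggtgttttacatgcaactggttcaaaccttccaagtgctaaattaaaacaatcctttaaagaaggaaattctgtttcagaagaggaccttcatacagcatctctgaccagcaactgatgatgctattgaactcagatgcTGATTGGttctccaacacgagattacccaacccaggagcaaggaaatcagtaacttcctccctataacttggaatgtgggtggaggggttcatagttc

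The same letters were also in 10 of the 18 promoters found for the cholesterol synthesis and uptake genes (55.6%), of which 12 of 24 were higher in experiment 2, and 2 of these promoters are shown for comparison. They lie on the plus strand at chr1:155308616-155308915 (FDPS, farnesyl diphosphate synthase) and chr12:109573544-109573843 (MVK, mevalonate kinase). A match describes the letters of these windows only.
FDPS: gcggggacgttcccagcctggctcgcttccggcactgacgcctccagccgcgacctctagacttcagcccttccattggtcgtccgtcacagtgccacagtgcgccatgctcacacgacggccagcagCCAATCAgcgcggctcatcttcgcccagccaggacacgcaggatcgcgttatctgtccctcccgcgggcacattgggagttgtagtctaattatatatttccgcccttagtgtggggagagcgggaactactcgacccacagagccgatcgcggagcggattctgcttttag
MVK: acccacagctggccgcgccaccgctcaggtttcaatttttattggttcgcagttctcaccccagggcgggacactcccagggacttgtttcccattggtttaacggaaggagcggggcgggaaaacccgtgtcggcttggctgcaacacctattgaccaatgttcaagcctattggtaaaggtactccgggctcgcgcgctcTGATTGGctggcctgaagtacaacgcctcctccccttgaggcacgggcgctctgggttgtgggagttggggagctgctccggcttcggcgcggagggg

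Genes of the melanocyte lineage were examined next, in a list of 24 genes of which 12 were expressed enough to be tested. In experiment 2, 6 of the 12 were lower and 2 higher, with a median log2 difference of −0.46, beside 11.7% and 14.8% of all genes. Between experiments 3 and 1, 8 were higher and 1 lower in experiment 3, with a median of 0.38, beside 6.22% and 5.89% of all genes. Without the treatment term 2 of the 12 were called higher and 1 lower in experiment 3, beside 1.42% and 1.78% of all genes. SOX10 was at 208, 178, 246 and 212 CPM in experiment 2, at 300, 293, 327 and 309 CPM in experiment 1 and at 426, 375, 429 and 400 CPM in experiment 3. The levels did not overlap between experiments, and the differences were −0.75 ± 0.05 (adjusted p = 8.5e-10) and 0.41 ± 0.05 (adjusted p = 3.0e-05). The neuregulin receptor ERBB3 differed by −0.95 ± 0.06 and 0.62 ± 0.07, and the calcium-binding protein S100B by −1.20 ± 0.10 and 0.76 ± 0.10, in the same order of the experiments. RXRG, the retinoid receptor gene that was among the genes furthest above in experiment 3, differed by −1.64 ± 0.17 and 1.21 ± 0.15. MITF, the regulator of pigment cell genes, went against this order. It was at 56.7, 43.9, 59.7 and 57.9 CPM in experiment 2, at 40.9 to 52.2 CPM in experiment 1 and at 24.4 to 35.8 CPM in experiment 3, with differences of 0.53 ± 0.06 (adjusted p = 1.2e-06) and −0.57 ± 0.07 (adjusted p = 2.2e-05).

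The list of dedifferentiated melanoma genes held 18 tested members, of which 9 were higher and 6 lower in experiment 2 (median 0.22), and 3 were higher and 8 lower in experiment 3 than in experiment 1 (median −0.17). The shares of all genes higher and lower were 14.8% and 11.7% for the first comparison and 6.22% and 5.89% for the second. SOX9, a transcription factor of the same family as SOX10, was at 26.4, 20.0, 24.3 and 23.04 CPM in experiment 2, at 8.97, 9.56, 8.32 and 7.66 CPM in experiment 1 and at 2.94, 2.03, 1.90 and 1.18 CPM in experiment 3. It differed by 2.49 ± 0.11 (adjusted p = 8.8e-12) and −2.11 ± 0.18 (adjusted p = 3.8e-07), so that its order of experiments was the reverse of that of SOX10. The ligand NRG1 followed SOX9, with differences of 1.11 ± 0.08 and −1.44 ± 0.11. The receptor tyrosine kinase AXL was not called in experiment 2 (0.10, level 503 CPM on average) and was lower in experiment 3 than in experiment 1 (−0.42, 404 against 542 CPM). FN1 and the matrix protein tenascin C (TNC), which stand in the same list, were among the 6 members that were lower in experiment 2, TNC by −0.73 ± 0.05.

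Matrix and adhesion genes were called in both directions. Of 21 collagens and matrix proteins, 9 were higher and 7 lower in experiment 2, against 14.8% and 11.7% of all genes. The laminin chain LAMA5 was at 281, 277, 318 and 276 CPM in experiment 2, at 101 to 128 CPM in experiment 1 and at 53.7 to 64.4 CPM in experiment 3, with differences of 1.80 ± 0.05 (adjusted p = 7.8e-15) and −0.96 ± 0.06 (adjusted p = 1.3e-08). The proteoglycan BGN and the collagen COL1A1 had the same order, with 1.74 ± 0.07 and 1.88 ± 0.09 in experiment 2 and −0.70 ± 0.09 and −1.18 ± 0.13 between experiments 3 and 1. COL1A1 is also a fibroblast marker. The summed level of the 5 tested fibroblast markers was 35.1 to 60.9 CPM in experiment 2, 22.4 to 36.04 CPM in experiment 1 and 17.5 to 31.8 CPM in experiment 3. In experiment 2 COL1A1 was at 16.1 to 29.3 CPM and PDGFRB at 13.25 to 24.0 CPM. LUM was highest in experiment 3, at 5.77 to 7.41 CPM, against 4.12 to 5.05 CPM in experiment 2. Of the 5 markers, 2 were higher and none lower in experiment 2 (median −0.06), beside 14.8% and 11.7% of all genes. In experiment 3 against experiment 1, 1 was higher and 2 lower, beside 6.22% and 5.89%. COL3A1 had at most 6 counts in a library, and the part of such cells in the result was not tested. Of 15 integrin genes, 5 were higher and 5 lower in experiment 2, and 5 higher and 1 lower in experiment 3 than in experiment 1. Of all genes 6.22% and 5.89% were. Without the combination library of experiment 1 the latter were 5 and 3. The laminin receptor chain ITGB4 was at 117 to 157 CPM in experiment 2 against 36.2 to 46.4 and 23.1 to 35.4 CPM in experiments 1 and 3 (1.98 ± 0.05, adjusted p = 8.2e-15), and the vitronectin receptor chain ITGB3 was lowest there, by −1.05 ± 0.10. Among 19 matrix proteases and inhibitors, 8 were higher and 5 lower in experiment 2, and 8 higher and 3 lower in experiment 3. With the correction for GC content and length 7 were higher and 8 lower in experiment 2, beside 14.4% and 21.5% of all genes. Without the treatment term 2 proteases and inhibitors and 1 integrin gene were higher in experiment 3, beside 1.42% of all genes. In experiment 2 there were then 1 integrin gene higher and 2 lower, beside 8.63% and 6.09% of all genes. The stromelysin MMP3 was higher in experiment 2 (2.27 ± 0.14), the inhibitor TIMP3 lower (−0.75 ± 0.07), and the protease inhibitor SERPINE2 higher in experiment 3 than in experiment 1 (0.62 ± 0.05).

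**Figure D4:**
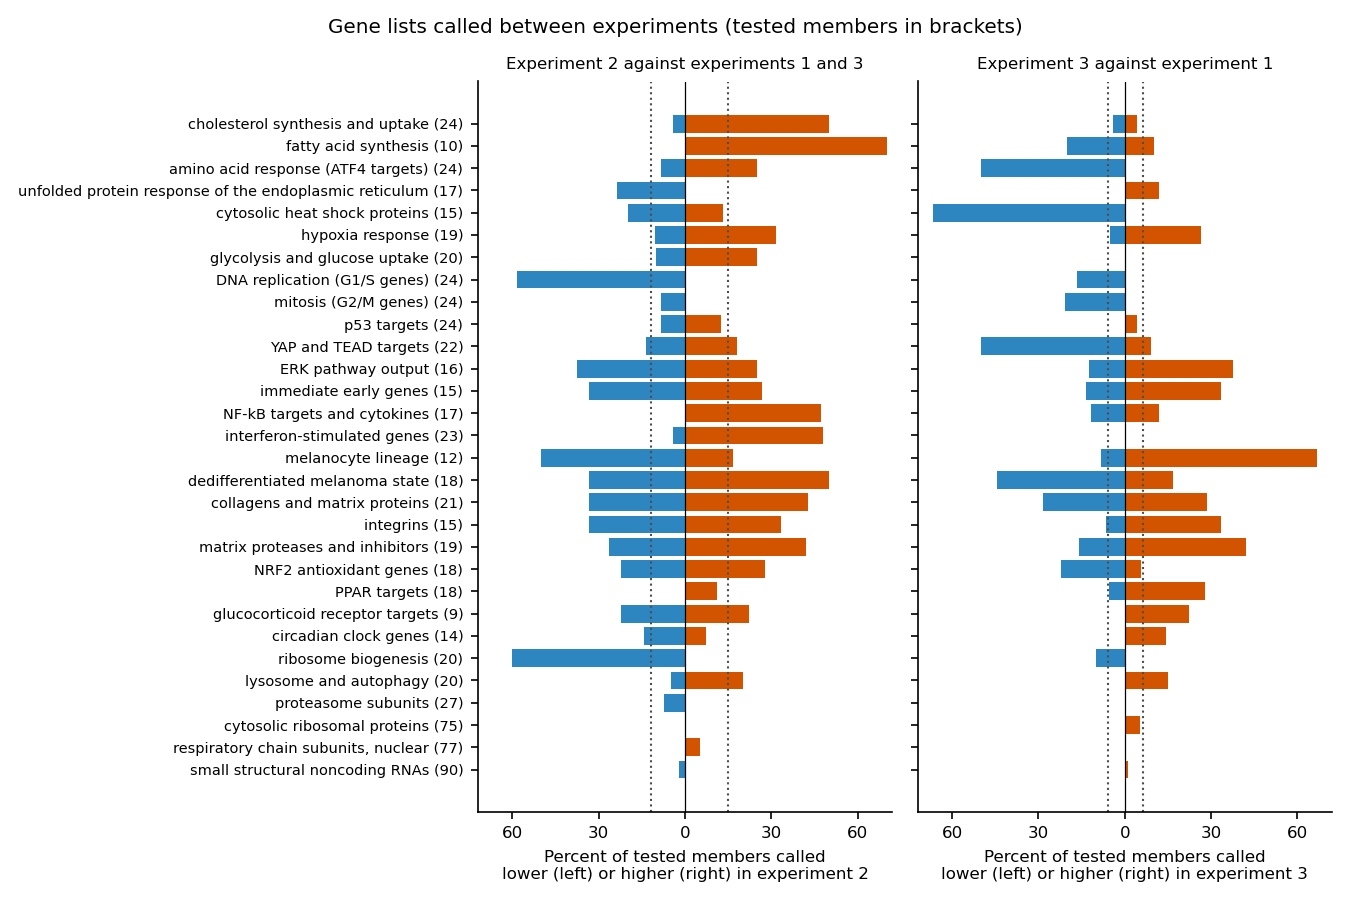
Percent of the tested members of each gene list that were called higher (right bars) or lower (left bars) in experiment 2 against experiments 1 and 3 and in experiment 3 against experiment 1; dotted lines mark the percent of all genes called in each direction, and lists of 9 or more tested genes are drawn. Ribosome biogenesis and DNA replication genes point to the left in the first panel, and heat shock, amino acid response and YAP target genes in the second.

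Of 24 cholesterol synthesis and uptake genes tested, 12 were higher in experiment 2, 1 was lower and 11 were not called, with a median of 0.14, and of 10 fatty acid synthesis genes 7 were higher and none lower, with a median of 0.24, beside 14.8% of all genes higher and 11.7% lower. The differences were modest. The desaturase SCD was at 486, 600, 502 and 612 CPM in experiment 2, at 379, 507, 365 and 467 CPM in experiment 1 and at 344, 464, 316 and 427 CPM in experiment 3 (0.44 ± 0.04, adjusted p = 2.3e-07), higher in experiment 2 within each treatment. The sterol-regulated membrane protein INSIG1 differed by 0.44 ± 0.06 and the transcription factors SREBF1 and SREBF2 by 0.38 ± 0.05 and 0.34 ± 0.05. Between experiments 3 and 1, 1 cholesterol gene was higher and 1 lower, beside 6.22% and 5.89% of all genes.

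Of 17 NF-kB targets and cytokines, 8 were higher in experiment 2 and none lower (median 0.31), and of 23 interferon-stimulated genes 11 were higher and 1 lower (median 0.26), beside 14.8% of all genes higher and 11.7% lower. TNFAIP3, an inhibitor of NF-kB signaling, was at 27.3, 30.5, 26.8 and 26.5 CPM in experiment 2, at 8.89 to 13.1 CPM in experiment 1 and at 5.04 to 8.003 CPM in experiment 3 (1.75 ± 0.08, adjusted p = 2.6e-11). The interleukin IL1B varied with the treatment as well, at 9.52, 30.7, 0.985 and 9.15 CPM in experiment 2, at 0.681, 6.13, 0 and 1.48 CPM in experiment 1 and at 0.706, 6.29, 0.0862 and 2.25 CPM in experiment 3, and differed by 2.54 ± 0.17. The ubiquitin-like ISG15 (0.83 ± 0.10), the antiviral protein IFIT1 (0.96 ± 0.11) and OASL (2.87 ± 0.19) were higher in experiment 2, OASL from a low level in the other experiments of at most 2.18 CPM. Between experiments 3 and 1 the median of the interferon-stimulated genes was 0.05.

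Of 24 DNA replication genes of the G1/S phase, 14 were lower in experiment 2 and none higher (median −0.14), and of 20 ribosome biogenesis genes 12 were lower and none higher (median −0.15), against 11.7% of all genes. The thymidylate synthase gene TYMS was at 59.8, 47.8, 59.6 and 50.3 CPM in experiment 2, at 65.8 to 74.5 CPM in experiment 1 and at 67.1 to 71.9 CPM in experiment 3, a difference of −0.36 ± 0.06 (adjusted p = 9.8e-05). E2F1, which drives entry into S phase, differed by −0.33 ± 0.06, the ribosome assembly factor RRS1 by −0.24 ± 0.05 and nucleolin (NCL) by −0.16 ± 0.03. Of 24 mitotic genes, 2 were lower in experiment 2 and 5 lower in experiment 3 than in experiment 1, and without the combination library of experiment 1 these numbers were 6 and 12 (7 and 13 with a correction for GC content and length). Of all genes 11.7% and 5.89% were lower in the 2 comparisons, 15.8% and 10.5% without that library and 21.5% and 10.2% with the correction. MKI67 was lower in both comparisons, by −0.20 ± 0.06 (adjusted p = 0.012) and −0.21 ± 0.07 (adjusted p = 0.042). The hypoxia list had 6 of 19 members higher and 2 lower, against 14.8% and 11.7% of all genes, led by the carbonic anhydrase CA9, at 2.42 to 6.39 CPM in experiment 2 and below 1 CPM in all other libraries, and the hormone STC1 (1.61 ± 0.12).

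Of 15 cytosolic heat shock genes, 10 were lower in experiment 3 and none higher (median −0.23), against 5.89% of all genes. HSPA8, the constitutive HSP70, was at 3829, 4046, 3617 and 3869 CPM in experiment 3, at 4988, 5290, 4804 and 5233 CPM in experiment 1 and at 4299, 4552, 3891 and 3965 CPM in experiment 2, with a difference of −0.40 ± 0.04 between experiments 3 and 1 (adjusted p = 2.4e-06). The inducible HSPA1B was lower by −0.97 ± 0.06 and HSPA1A by −0.84 ± 0.08, and since both genes are nearly identical their counts may be divided between them. Of 24 targets of the amino acid response factor ATF4, 12 were lower in experiment 3 and none higher (median −0.24), while 6 were higher and 2 lower in experiment 2. Of all genes 14.8% and 11.7% were. With the correction for GC content and length 5 were higher and 6 lower there, beside 14.4% and 21.5% of all genes. The glutathione-degrading enzyme CHAC1 differed by −0.75 ± 0.09 between experiments 3 and 1, the hormone STC2 by −0.50 ± 0.07 and the pseudokinase TRIB3 by −0.32 ± 0.06. In experiment 2 the ATF4 targets NUPR1 (1.75 ± 0.10) and GDF15 (1.45 ± 0.11) stood highest, GDF15 at 18.4 to 19.6 CPM against 6.70 to 11.5 CPM in experiment 1 and 5.17 to 6.86 CPM in experiment 3. Of 22 YAP and TEAD targets, 11 were lower and 2 higher in experiment 3 (median −0.25), among them tissue factor (F3, −0.74 ± 0.10) and AXL. The unfolded protein response list of the endoplasmic reticulum had 2 of 17 members higher and none lower in experiment 3 (median 0.10). Of all genes 6.22% were higher and 5.89% lower in experiment 3 than in experiment 1.

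Immediate early and ERK output genes were called in both directions. Of 15 immediate early genes, 5 were higher and 2 lower in experiment 3 than in experiment 1, and 4 were higher and 5 lower in experiment 2, beside 6.22% and 5.89% of all genes in the first case and 14.8% and 11.7% in the second. EGR1 was at 13.4, 19.9, 15.5 and 15.2 CPM in experiment 3, at 6.05 to 10.1 CPM in experiment 1 and at 5.47 to 7.62 CPM in experiment 2, with a difference of 1.13 ± 0.13 between experiments 3 and 1 (adjusted p = 7.3e-06). EGR3 and the nuclear receptor NR4A1 had differences of 0.87 ± 0.12 and 0.70 ± 0.06 there and of −1.06 ± 0.12 and −1.13 ± 0.06 in experiment 2. SPRY4, a feedback inhibitor of ERK signaling, was at 151 to 191 CPM in experiment 3, 93.6 to 118 CPM in experiment 1 and 64.4 to 90.2 CPM in experiment 2 (0.70 ± 0.05 and −0.75 ± 0.05). Of 16 ERK output genes, 6 were higher and 2 lower in experiment 3, and 4 higher and 6 lower in experiment 2.

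The 12 genes furthest above in experiment 3 differed by 1.15 to 1.33 on the log2 scale. ABAT, the transaminase of GABA, was at 10.7, 6.70, 16.1 and 9.21 CPM in experiment 3, at 4.77, 1.98, 6.58 and 3.71 CPM in experiment 1 and at 1.48 to 5.64 CPM in experiment 2. It was higher in experiment 3 within each treatment, which the choice of these genes required (1.33 ± 0.14, adjusted p = 4.3e-06). The protease inhibitor SERPINA3 was at 104, 51.6, 213 and 160 CPM in experiment 3 and at 49.2, 22.1, 78.3 and 71.6 CPM in experiment 1, a difference of 1.23 ± 0.10 (adjusted p = 1.2e-07), while experiment 2, at 28.7 to 64.8 CPM, overlapped experiment 1. FCRLA and LMF1, a factor for lipase maturation, were higher in experiment 3 (1.15 ± 0.18 and 1.18 ± 0.15) and not called in experiment 2 against the others (−0.06 ± 0.15 and −0.13 ± 0.14). The 12 furthest below in experiment 3 differed by −3.36 to −1.84, with BASP1, SH3GL2 and MPP7 first; they included SOX9, ODAD2 (−2.27 ± 0.20) and the regulator of G protein signaling RGS4 (−1.89 ± 0.28).

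Lists of abundant housekeeping genes depended on the combination libraries of experiments 1 and 2. After experiment and treatment were removed, the residual of GC-rich minus GC-poor genes (highest and lowest 10% of genes) was 0.19 in that of experiment 1 and −0.16 in that of experiment 2 on the log2 scale, and the residual of short minus long genes 0.23 and −0.21. In the other libraries these lay between −0.13 and 0.09 and between −0.11 and 0.16. Their part in the result was not tested. Of 75 cytosolic ribosomal protein genes, 4 were higher in experiment 3 than in experiment 1 with all libraries, and 61 without the combination library of experiment 1, beside 830 (6.22%) and 1381 (10.2%) of all genes. Of 77 nuclear genes of the respiratory chain the number went from 0 to 45. Without the combination library of experiment 2 the 2 lists had 18 and 7 members higher there, beside 7.86% of all genes. In experiment 2, without the combination library of experiment 1, the ribosomal protein genes called went from 0 to 10 and the respiratory chain genes from 4 to 28, all higher, beside 1973 (14.8%) and 2436 (18.0%) of all genes. Without the combination library of experiment 2 they were 12 and 30, all higher, beside 15.45% of all genes. The medians with all libraries were 0.09 for both lists between experiments 3 and 1. In experiment 2 these calls also turned with the correction for GC content and length, under which 12 ribosomal protein genes were lower and none higher, and 5 respiratory chain genes were higher and 5 lower, beside 14.4% of all genes higher and 21.5% lower. In experiment 3 against experiment 1, without the combination library of experiment 1, the lysosome genes called higher went from 3 to 7 of 20, the ribosome biogenesis genes called lower from 2 to 5 of 20, the DNA replication genes called lower from 4 to 6 of 24 and the small noncoding RNAs called higher from 1 to 6 of 90. Of all genes 10.2% were then higher and 10.5% lower, so that the share of the noncoding RNAs lay below that of all genes. The mitotic genes moved as given above, and several other lists moved by few members. Without the same library 14 of 24 cholesterol genes were higher and 16 of 24 DNA replication genes lower in experiment 2. In experiment 3, 10 of 15 heat shock genes and 12 of 24 ATF4 targets were then lower.

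In the remaining lists the calls are to be read beside 14.8% of all genes higher and 11.7% lower in experiment 2, and 6.22% and 5.89% in experiment 3 against experiment 1. In experiment 2 the calls higher and lower were 5 and 2 of 20 glycolysis and glucose uptake genes, 3 and 2 of 24 p53 targets, 4 and 3 of 22 YAP and TEAD targets, 5 and 4 of 18 NRF2 antioxidant genes, 2 and 2 of 9 glucocorticoid receptor targets, 1 and 2 of 14 clock genes and 4 and 1 of 20 lysosome genes. The endoplasmic reticulum stress list had 4 of 17 members lower and none higher, and the proteasome list 2 of 27 lower. With the correction for GC content and length, under which 14.4% of all genes were higher and 21.5% lower, several of these lists had more members lower. The calls higher and lower were then 5 and 5 for glycolysis, 3 and 4 for p53, 4 and 6 for YAP and TEAD, 5 and 7 for NRF2 and 1 and 6 for clock genes. The endoplasmic reticulum stress list then had 9 members lower and the proteasome list 6. The 3 metallothioneins had a median of 0.13. Of 6 histone genes of the replication-dependent clusters 3 were higher in experiment 2, and of 90 small structural noncoding RNAs 2 were lower. Without the combination library of experiment 1, 6 of these RNAs and 5 YAP and TEAD targets were lower and 5 p53 targets higher in experiment 2. Of all genes 15.8% were then lower and 18.0% higher. In experiment 3 against experiment 1, 4 NF-kB genes were then higher, beside 10.2% of all genes. Of 18 PPAR targets, 2 were higher in experiment 2, and 5 were higher and 1 lower in experiment 3 than in experiment 1. Between experiments 3 and 1 the hypoxia list had 5 members higher and 1 lower, the NRF2 list 1 and 4, the NF-kB list 2 and 2, the collagens and matrix proteins 6 and 6, the fatty acid list 1 and 2, the DNA replication list 0 and 4 and the lysosome list 3 and 0. Among markers of other cell types, 1 of 3 keratinocyte genes was higher and 1 lower in experiment 2, the endothelial receptor KDR was lower (−0.64, and higher in experiment 3 than in experiment 1 by 1.01), and of 3 leukocyte genes CD68 was higher (0.92) and LYZ lower (−0.96). The summed level of these 3 leukocyte genes, mostly that of the lysosomal protein CD68, was 73.3 to 104 CPM in experiment 2, 47.0 to 59.4 CPM in experiment 1 and 42.2 to 69.6 CPM in experiment 3, and the part of such cells in the result was not tested.

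By chromosome, the median difference of experiment 2 was near 0 for most chromosomes and lowest for chromosome 13. Its 240 tested genes had a median of −0.11 on the log2 scale, 73.8% of them were lower in experiment 2, and 87 were called lower and 20 higher, or 36.3% and 8.33% against 11.7% and 14.8% of all genes. The median was −0.14 in vehicle, −0.13 in RGZ, −0.13 in T0070907 and −0.06 in the combination, and over all alternative fits it lay between −0.13 and −0.11. Along the chromosome, in 6 blocks of 40 neighboring genes ordered by RefSeq position (GRCh38.p14), the median was −0.17, −0.04, −0.12, −0.09, −0.10 and −0.15, with 62.5% to 82.5% of the genes lower in each block. The shift was thus small and spread along the chromosome, whereas TRPC4 and NALF1, which lie on it, were among the genes furthest above. Chromosome 21 followed, with a median of −0.06 over 127 genes and 65.4% of them lower. Between experiments 3 and 1 the medians of chromosomes 13 and 21 were 0.04 and −0.01.

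**Figure D5:**
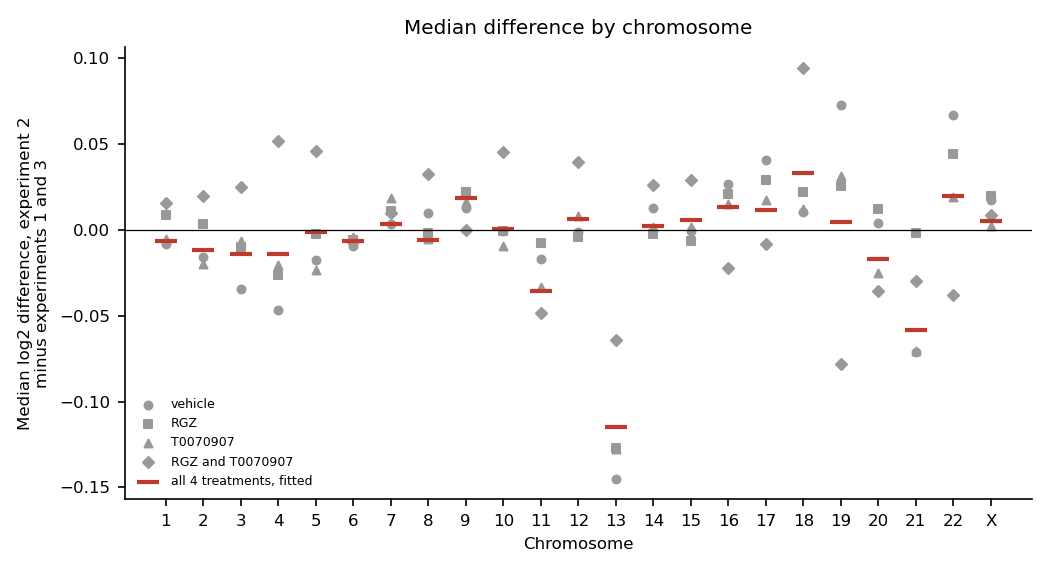
Median log2 difference of the tested genes of each chromosome, experiment 2 minus the mean of experiments 1 and 3; red strokes are the fitted difference over all treatments and gray symbols the difference within each treatment. Chromosome 13 lies lowest, at −0.11, with all 4 treatments below 0.

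The response to RGZ was compared between experiments, since a gene at a different level in each culture could also respond differently. The effect tested was the difference between libraries with RGZ (alone or with T0070907) and those without (vehicle or T0070907). It thus averages the response to RGZ without and with the antagonist, and the response to RGZ alone was not tested between experiments. No gene differed in its RGZ effect between the 3 experiments at an adjusted p under 0.05 by edgeR, with 484 genes (3.63%) at an unadjusted p under 0.05 and a smallest adjusted p of 0.45; DESeq2 and limma-voom also called none. Without a filter on low counts 18 genes were called. Leaving out 1 library gave 29 without the RGZ library of experiment 1. It gave 7 and 5 without the RGZ and combination libraries of experiment 2, 3 without the RGZ library of experiment 3 and 1 without the combination library of experiment 1. Each experiment has 1 library of each treatment, and the test assumes that the treatments vary alike. Of 18 PPAR targets tested, 15 were higher with RGZ than with vehicle in all 3 experiments, a description that is not the effect tested above. The exceptions were TXNIP, ACSL1 and FABP3, the last at 4 to 16 counts, and no share of all genes was taken for this count. The median log2 difference of the 18 (with 0.5 CPM added) was 0.71, 0.89 and 0.78 in experiments 1, 2 and 3. FABP4, a fatty acid carrier, had 1 count in each vehicle library and was at 197, 401 and 167 CPM with RGZ, the highest level being that of experiment 2. ANGPTL4, an inhibitor of lipoprotein lipase, went from 3.41 to 384 CPM, from 5.24 to 451 CPM and from 8.36 to 449 CPM. The lipid droplet protein PLIN2 was at 365, 389 and 405 CPM with vehicle and at 2097, 2547 and 2478 CPM with RGZ. TXNIP, the inhibitor of thioredoxin, was lower with RGZ in each experiment, at 11.5 against 23.2 CPM, 13.1 against 21.9 CPM and 7.82 against 15.8 CPM. Over all treatments TXNIP was lower in experiment 3 than in experiment 1 by −0.49 ± 0.09 (adjusted p = 0.0011). PPARG itself was at 69.2 to 82.9 CPM in experiment 1, 77.7 to 95.7 CPM in experiment 2 and 69.5 to 77.5 CPM in experiment 3, a difference of 0.21 ± 0.05 for experiment 2 (adjusted p = 0.0029). The reference gene YWHAZ was not called in either comparison (−0.06 ± 0.04 and 0.04 ± 0.04).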

How the data were processed

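RNA-seq was carried out on 12 libraries of A375 cells (3 experiments, 4 treatments). The authors deposited a table of raw counts per gene, whole numbers that were not normalized, for 23705 genes. The build is hg19 per the labels, and the aligner, counter and strand setting are not given in the sources used here. Gene numbers were paired with symbols for 23538 genes, and no column of other samples was present. Experiments were taken from the column names. The 13340 genes kept by the edgeR filter were tested in edgeR 4.0.16 (R 4.3.3; TMM scaling, quasi-likelihood test, Benjamini-Hochberg adjustment, threshold 0.05) with treatment and experiment as terms, which left 6 residual degrees of freedom, and 4 for the RGZ effect by experiment. The biological coefficient of variation was 5.77%. Scripts were tested on simulated data. Promoter windows came from RefSeq.

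The text names, for each comparison, the 12 genes with the largest differences in each direction (adjusted p under 0.05, mean of at least 3 CPM, same direction in all 4 treatments), up to 4 genes of each of 37 lists with the smallest adjusted p, and PPARG, TXNIP, YWHAZ and B2M. Genes and lists were chosen with earlier results of these data known. The class II family, the RFX genes and marker genes named to check the cell type are additions. A few genes that the rule would name are not reported here. Of the list of mitochondrially encoded genes none was in the table. Alternatives were DESeq2 1.42.0 and limma-voom 3.58.1, DESeq2 size factors, other filters, no treatment term, a correction for GC content and length (available for 98.5% of genes), thinning to the smallest total, stricter thresholds and leaving out each library. Library totals were within a factor of 1.37 of each other.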

Additional observations from a re-analysis of the deposited data

Results flagged for a closer look

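In a group of 4 libraries, a library was singled out where its gap to the nearest other, divided by the range of the group, exceeded Dixon's 95% critical value, with log2 CPM taken relative to the mean of its treatment. Of 123 groups examined (37 named genes and 4 library measures in each experiment) 6 were singled out, and chance gives about 1 in 20. Within experiment 2, the RGZ library was lowest for TRPC4 (ratio 0.972, 11.8 CPM against 13.5 to 16.0 CPM in the others) and for HLA-DOA (0.948, 1.03 CPM against 2.15 to 3.33 CPM), the T0070907 library highest for CDH4 (0.850), and the vehicle library highest for LMF1 (0.869). In experiment 3 the RGZ library was lowest for HLA-DQA2 (0.842). The combination library of experiment 1 was lowest on the third principal component (0.865, score −18.3).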

How the results depend on the processing

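Of 24 genes named by size in each comparison, 465 of 466 fits under 20 alternatives kept direction and call for experiment 2, and 466 of 470 for experiment 3 against 1. The 5 calls lost were PLEKHS1, ABAT, SERPINA3, RXRG and NRCAM without the treatment term; none reversed. Counts of genes moved more. For experiment 2 (3538) they were 2324 at an adjusted p under 0.01, 486 with at least a 2-fold difference, 1964 without the treatment term and 2623 to 4572 leaving out 1 library each. For experiment 3 against 1 (1616) they were 829, 162 and 426 under the same settings, 1062 by DESeq2, 2492 with the GC and length correction and 965 to 2806 leaving out 1 library each: 2806 without the combination library of experiment 1, 965 and 1001 without its T0070907 and RGZ libraries, and 966 and 1048 without the T0070907 and RGZ libraries of experiment 3. For any difference (4074) they were 2535, 1893 and 3061 to 5816. The RGZ effect by experiment went from 0 genes to 18 without a filter and 0 to 29 leaving out 1 library each; 29 came without the RGZ library of experiment 1, and 7, 5, 3 and 1 without the RGZ and combination libraries of experiment 2, the RGZ library of experiment 3 and the combination library of experiment 1. The correction for GC content and length changed the split for experiment 2 from 55.8% to 40.2% higher (1926 of 4792 genes). Across all alternatives, the members called higher in experiment 2 numbered 6 to 14 for cholesterol, 3 to 10 for NF-kB and 9 to 12 for interferon genes, and those called lower 9 to 19 for DNA replication and 4 to 15 for ribosome biogenesis; in experiment 3 those called lower numbered 7 to 12 for heat shock, 6 to 16 for ATF4 and 4 to 13 for YAP targets. Without the treatment term 2 rather than 8 melanocyte lineage genes were higher in experiment 3, beside 1.42% rather than 6.22% of all genes. Integrin genes called higher numbered 1 to 5 in experiment 2 and 1 to 6 in experiment 3, and matrix proteases and inhibitors 2 to 9 in experiment 3. Causes were not tested, beyond fewer libraries or stricter rules. No paired analysis was possible because the experiment is the group compared and replicate numbers do not pair libraries across experiments beyond the treatment term. The depth of 8319455 to 11375227 counts limits genes below about 1 CPM, where 3 counts correspond to 0.258 to 0.371 CPM.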

Other observations

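Single genes of other lists are given here for the same comparisons. KRT14, an epidermal keratin, was at 18.2, 10.5, 26.7 and 27.1 CPM in experiment 1, 11.7, 5.37, 18.1 and 11.9 CPM in experiment 2 and 32.5, 16.4, 37.0 and 30.3 CPM in experiment 3, and differed by −1.05 ± 0.10 (adjusted p = 3.6e-07) and 0.51 ± 0.10 (adjusted p = 0.0032). The lysozyme gene LYZ had the same order, with 0.72 ± 0.12 (adjusted p = 5.3e-04) between experiments 3 and 1. Both stand in marker lists of other cell types, and the part of such cells was not tested. The glucocorticoid target KLF9 also followed this order (−0.80 ± 0.07 and 0.54 ± 0.07), as did the antioxidant enzyme NQO1 (−0.37 ± 0.05 and 0.43 ± 0.05), at 572 to 759 CPM in experiment 2 and 894 to 1105 CPM in experiment 3. In 261 genes the experiment accounted for over 90% of the variance in log2 CPM, and in 100 genes the treatment did.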
